A study of Homo sapiens with 2 samples.

Results

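The chaperonin CCT, also called TRiC, was examined through the transcripts of its 8 subunits in A549, a widely used cell line from a human lung adenocarcinoma. The members are the genes TCP1, CCT2, CCT3, CCT4, CCT5, CCT6A, CCT7 and CCT8, taken by name because they encode the parts of a single complex, and all 8 were found among 18786 gene symbols with a value in both libraries. RNA sequencing was available for 1 library of A549 cells carrying the stably integrated retroviral vector and for 1 library of A549 cells stably transduced with ATOH8, which encodes a transcription factor of the basic helix-loop-helix family. Which promoter drives the transgene, and whether a line was a clone or a pool, the labels do not say. With 1 library per group, each difference compares these libraries, carries no replicate error and has no p-value of its own.

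CCT is a barrel of a pair of stacked rings, each ring holding 1 copy of each of the 8 related subunits. It binds newly made or unfolded proteins in its cavity, hydrolyses ATP and closes a built-in lid while the client folds. Actin and tubulin are its classic obligate clients, and several WD40 repeat proteins, among them activators of the anaphase-promoting complex, also depend on it. Prefoldin and HSP70 hand clients to the complex, and phosducin-like proteins act as cofactors.

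Values are FPKM, fragments scaled to transcript length and to library size, so levels of different genes can be set side by side per length. The files listed 20966 genes for the vector library and 20870 for the ATOH8 library. ATOH8 itself was at 0.786 FPKM with vector and at 182 FPKM with ATOH8, as labelled; the values do not separate the transgene from the cells' own gene. Of 8 epithelial and A549 markers, all 8 had a mean of at least 1 FPKM, and they summed to 10549 FPKM (vector) and 10244 FPKM (ATOH8), with members on both sides. KRT8 (2381 and 2302 FPKM), KRT18 (2486 and 2012 FPKM), AKR1B10 (2938 and 2355 FPKM) and NQO1 (1070 and 961 FPKM) were lower with ATOH8 as deposited and above the median gene relative to it. KRT7 (965 and 1470 FPKM), AKR1C1 (691 and 1088 FPKM) and CDH1, which encodes E-cadherin (15.4 and 54.1 FPKM), were higher, and EPCAM was low in both (1.70 and 2.23 FPKM). The part of these differences in the CCT values was not tested. Of 8 markers of blood, endothelial and fibroblast cells, CD68 alone reached that mean (2.14 and 15.4 FPKM). CD3E was listed in neither file, and PTPRC, PECAM1, VWF and CDH5 were listed in the ATOH8 file alone, at no more than 0.0510 FPKM. Mitochondrially encoded transcripts, without MT-CO1, which the ATOH8 file does not list, took 14.4% of all FPKM with vector and 24.2% with ATOH8. With all mitochondrially encoded genes left out of the total, MT-CO1 included, the median log2 fold of the CCT subunits was -1.16, beside -0.093 for all genes. Of the 8, 6 were still lower by 2-fold or more, against 12.9% of all genes.

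All 8 CCT subunits had lower FPKM in the ATOH8 library. So did 64.7% of all genes. Summed over the 8, the level was 2003 FPKM with vector and 847 FPKM with ATOH8, 2.36-fold lower, and their share of all FPKM was 0.371% and 0.169%. The median subunit had a log2 fold of -1.40 on the log2(FPKM + 1) scale, ATOH8 over vector, beside -0.30 for the median of 12342 genes with a mean of at least 1 FPKM. Of the 8 subunits, 6 were lower by 2-fold or more, against 19.0% of all genes, and 0 were higher by as much, against 6.24%. In bulk RNA, fewer cells that express a gene and less RNA per cell cannot be told apart.

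The libraries differed in their centre, and this bears on the counts. Genes with a mean of 5 FPKM or more had a median log2 fold of -0.36. Relative to that median gene, 4 of the 8 subunits were at least 2-fold lower, against 9.46% of all genes, and 0 were at least 2-fold higher, against 12.8%. The median subunit stood at -1.05 on this relative scale, and all 8 stayed below the median gene, as did 47.0% of all genes. Over all genes, those at least 2-fold lower made up 75.2% of the genes at least 2-fold apart as deposited and 42.5% relative to the median gene.

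**Figure D1:**
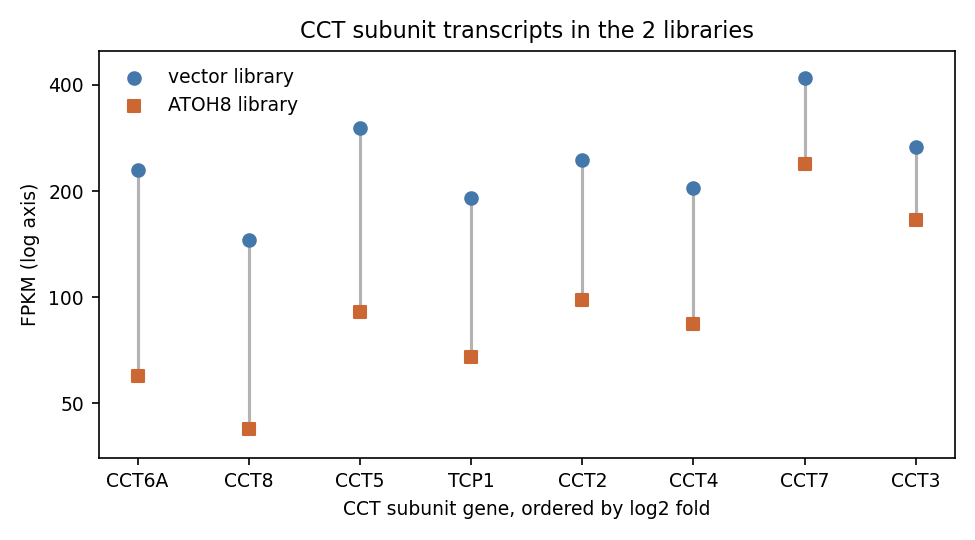
FPKM of each CCT subunit gene (log axis) in the vector library (circles) and the ATOH8 library (squares), 1 library each, ordered from the lowest log2 fold on the left. Every square lies under its circle. The gap is widest for CCT6A (230 and 59.8 FPKM) and narrowest for CCT3 (267 and 166 FPKM).

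The subunits are described in 3 bands by size of difference, drawn after their values were seen. Each value is from 1 library. CCT6A, which encodes the zeta subunit (ENSG00000146731, chromosome 7, 56051630 to 56063989, plus strand, all positions in GRCh38), was at 230 FPKM with vector and 59.8 FPKM with ATOH8, 3.84-fold lower. CCT8, the theta subunit (ENSG00000156261, chromosome 21, 29055805 to 29073797, minus strand), was at 145 and 42.1 FPKM, 3.45-fold lower. CCT5, the epsilon subunit (ENSG00000150753, chromosome 5, 10249921 to 10266412, plus strand), was at 302 and 91.0 FPKM, 3.32-fold lower. These are the lowest log2 folds of the complex, -1.92, -1.76 and -1.72. Only 2.11% of all genes had a lower log2 fold than CCT6A, 3.37% a lower one than CCT8 and 3.73% a lower one than CCT5.

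The middle band held TCP1, CCT2 and CCT4, at 35.2% to 41.2% of their vector level. TCP1, the alpha subunit that gave the complex its name (ENSG00000120438, chromosome 6, 159778498 to 159789749, minus strand), was at 192 and 67.5 FPKM, a log2 fold of -1.49. CCT2, the beta subunit (ENSG00000166226, chromosome 12, 69585334 to 69601570, plus strand), was at 245 and 97.8 FPKM, a log2 fold of -1.32. CCT4, the delta subunit (ENSG00000115484, chromosome 2, 61868089 to 61888804, minus strand), was at 204 and 84.1 FPKM, a log2 fold of -1.27. CCT2 and CCT4 are the members just past the 2-fold line that drop inside it relative to the median gene, at -0.96 and -0.91.

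CCT7 and CCT3 differed least. CCT7, the eta subunit (ENSG00000135624, chromosome 2, 73233420 to 73253021, plus strand), was the most abundant of the 8 in both libraries, at 419 FPKM with vector and 239 FPKM with ATOH8, a log2 fold of -0.80. CCT3, the gamma subunit (ENSG00000163468, chromosome 1, 156308968 to 156367873, minus strand), was at 267 and 166 FPKM, a log2 fold of -0.68. Relative to the median gene they stood at -0.45 and -0.32. Of all genes, 26.2% had a lower log2 fold than CCT7 and 31.3% a lower one than CCT3, so neither stood far from the bulk of genes.

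The authors' deposited table of differential expression listed the same 6 subunits that were at least 2-fold lower, all marked down, and neither CCT3 nor CCT7. Of the 12342 genes, 14.7% were marked down and 5.16% marked up in the authors' deposited table. The q-values in the authors' deposited table were 2.63e-05 for CCT5, 9.39e-05 for CCT6A, 0.00204 for CCT8, 0.00262 for CCT4, 0.00440 for TCP1 and 0.0277 for CCT2. That table rests on the same libraries, keeps only ratios of at least 2-fold and compares 1 library with 1, so it is no independent evidence.

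All the subunits were abundant transcripts. In the vector library they ranked between 169 (CCT7) and 454 (CCT8) among the listed genes, counted from the highest FPKM. In the ATOH8 library they ranked between 236 (CCT7) and 1405 (CCT8), and CCT6A moved from rank 271 to rank 960. Of 583 genes with a mean FPKM between 79.1 and 316, that is within 2-fold of the median subunit, 18.7% were at least 2-fold lower and the median log2 fold was -0.30. Genes as abundant as the subunits thus had the same median as all genes.

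Because the assembled ring holds its subunits in equal numbers, the make-up of the transcript pool was compared with an equal share of 12.5% per subunit. In the vector library the shares ran from 7.25% for CCT8 to 20.9% for CCT7, and the highest level was 2.88 times the lowest. In the ATOH8 library they ran from 4.97% for CCT8 to 28.2% for CCT7, and the highest level was 5.68 times the lowest. The transcript pool was thus further from equal shares in the ATOH8 library, with a coefficient of variation over the 8 subunits of 61.6% against 33.2%. CCT7 and CCT3 together account for the gain: CCT7 was higher by 7.34 percentage points and CCT3 by 6.26 points (13.3% and 19.6%), while the other 6 subunits had smaller shares, led by CCT6A (11.5% and 7.06%) and CCT5 (15.1% and 10.7%). Subunit order by level was largely shared between the libraries (Spearman's rho 0.86 over 8 genes, a description).

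**Figure D2:**
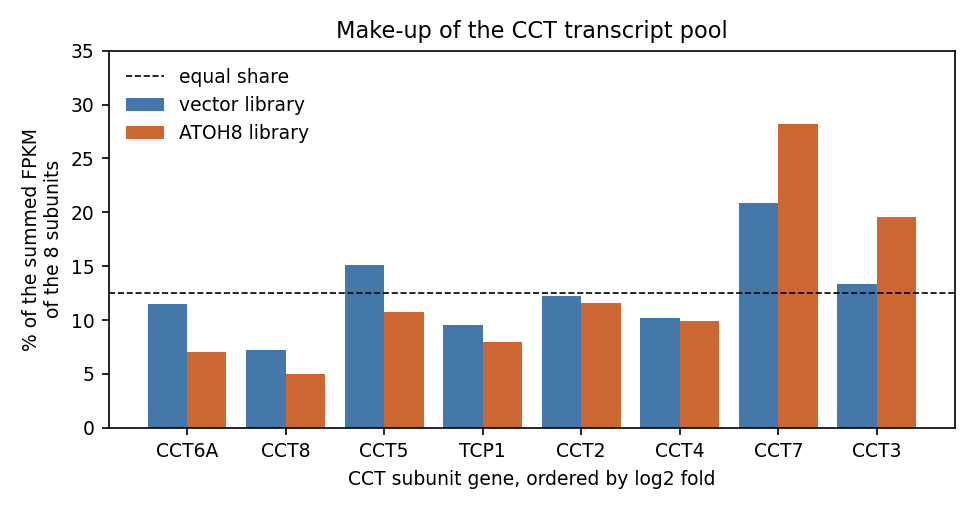
Share of each subunit in the summed FPKM of the 8 CCT subunits in the vector and the ATOH8 library, 1 library each, with the equal share of 12.5% dashed. CCT7 and CCT3 took larger shares in the ATOH8 library and the other 6 subunits smaller ones.

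The log2 folds of the subunits went with the base composition of their transcripts, chiefly through CCT3 and CCT7 standing apart from the other 6. CCT3 and CCT7, which differed least, have the GC-richest transcripts of the 8, with 51.2% and 51.3% G and C in the longest protein-coding transcript. The other 6 lie between 43.1% (CCT8) and 45.9% (CCT2). Among these 6 the order was not exact: CCT6A, with the lowest log2 fold, has 44.1%, and TCP1 has 43.8%. Over the 8 genes Spearman's rho of log2 fold with transcript GC content was 0.83 and Pearson's r 0.91, and over all tested genes they were 0.55 and 0.52. These are descriptions across genes, which share the libraries and their composition.

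The difference is visible in the coding sequence. A window of 90 coding bases is shown for the subunits at both ends of the order, 5′ to 3′, with each G and C in capitals; the window is the first in-frame one whose GC content is nearest to that of the whole coding sequence of the gene in GENCODE 29. The whole coding sequences hold 41.7% G and C in CCT8, 45.0% in CCT6A, 50.4% in CCT3 and 51.5% in CCT7.
CCT8: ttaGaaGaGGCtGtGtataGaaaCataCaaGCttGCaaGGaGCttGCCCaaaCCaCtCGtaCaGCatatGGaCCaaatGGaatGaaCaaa
CCT6A: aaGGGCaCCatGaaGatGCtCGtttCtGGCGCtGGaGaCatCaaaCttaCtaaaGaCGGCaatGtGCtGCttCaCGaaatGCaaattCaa
CCT3: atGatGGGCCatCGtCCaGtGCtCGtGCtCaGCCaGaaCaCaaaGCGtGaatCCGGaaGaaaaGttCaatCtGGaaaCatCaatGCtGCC
CCT7: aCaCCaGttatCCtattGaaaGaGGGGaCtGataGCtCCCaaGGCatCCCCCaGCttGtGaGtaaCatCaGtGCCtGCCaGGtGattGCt
The contrast is widest at the third base of codons, which can often vary without a change of amino acid. G or C stands there in 31.8% of CCT8 codons, 33.3% of CCT2, 34.0% of TCP1, 38.4% of CCT4 and 42.2% of CCT6A codons. In CCT5 it is 50.5%, in CCT3 56.7% and in CCT7 57.8%, beside a median of 58.8% over 11189 genes with a complete coding sequence. CCT5 does not follow the order: its third-base GC content is near that of CCT3, and its log2 fold is near that of CCT8. Spearman's rho with third-base GC content over the 8 genes was 0.50.

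The values of other genes of like composition were set beside the subunits. Of 1920 genes with a transcript GC content from 43% to under 47%, the range of the 6 lower subunits, the median log2 fold was -0.51 and 20.8% were at least 2-fold lower. Of 775 genes from 50% to under 52%, the range of CCT3 and CCT7, the median was -0.14 and 7.23% were at least 2-fold lower. Each subunit thus lay below the median of genes of its own composition. After subtraction of a lowess curve of log2 fold on transcript GC content, all 8 stayed below 0, from -1.36 for CCT6A to -0.54 for CCT3, with a median of -0.89. CCT6A (-1.36), CCT5 (-1.19) and CCT8 (-1.11) stayed at least 2-fold lower, 3 of 8 against 5.88% of all genes, and 0 were higher by as much, against 8.44%. TCP1 (-0.90), CCT2 (-0.89) and CCT4 (-0.76) did not. The span between the highest and the lowest subunit narrowed from 1.24 to 0.82 on the log2 scale. The relation to GC content largely remained. Over the 8 genes Spearman's rho of the corrected log2 fold with transcript GC content was 0.76 and Pearson's r 0.75.

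A correction on the GC content of the coding sequence alone, added after seeing the data, left 2 of 8 lower by 2-fold or more, against 5.73% of all genes, and 0 higher, against 8.18%. These were CCT5 and CCT6A, at -1.20 and -1.19, with CCT8 at -0.76 and the other 5 between -0.52 and -0.33. How much of the difference between subunits comes from base composition was not tested.

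**Figure D3:**
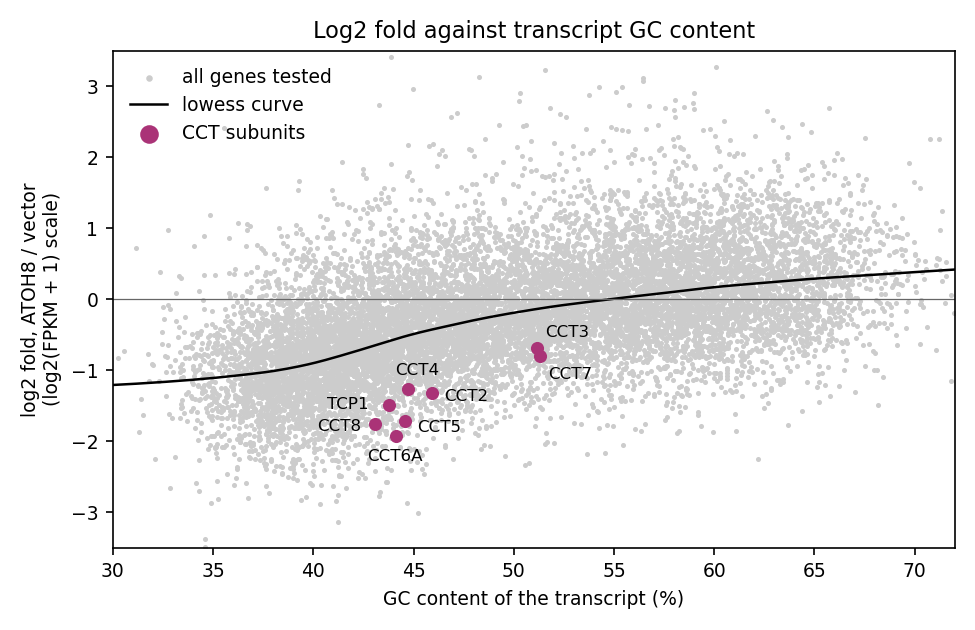
Log2 fold (ATOH8 over vector, log2(FPKM + 1) scale) against transcript GC content for all genes with a mean of at least 1 FPKM (grey; genes beyond the axes are not drawn), the lowess curve (line) and the 8 CCT subunits (labelled). All 8 subunits lie under the curve, and CCT3 and CCT7 stand apart from the other 6 in GC content.

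Overlapping genes and copies could share reads with some subunits. No source used here gives the strand setting, so reads from opposite strands cannot be told apart. TCP1 overlaps the last part of ACAT2, on the other strand, by 558 bases, and ACAT2 was at 25.3 and 15.6 FPKM. CCT4 overlaps the start of COMMD1 by 81 bases (27.2 and 12.9 FPKM), and CCT3 spans all of TSACC, 9682 bases on the other strand (1.12 and 0.908 FPKM). These neighbours were at much lower levels than the subunits. Of the copies of subunits, CCT6P1, CCT6P3, CCT7P2 and CCT8P1 were looked up, and they were at low levels where listed. The highest of these were CCT6P3 (1.27 and 0.712 FPKM) and CCT6P1 (1.05 and 0.709 FPKM). Other copies were not looked up. CCT2, CCT5, CCT6A, CCT7 and CCT8 had deposited loci that held no other protein-coding gene. The deposited locus of TCP1 (121 kb) overlapped 4 others, that of CCT4 (279 kb) 1 and that of CCT3 (58.9 kb) 1. Whether reads were shared within these loci was not tested.

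Bases around the start sites are shown for CCT8 (band of largest differences), TCP1 (middle band) and CCT3 and CCT7 (smallest differences). The 8 genes were lower together, and promoter letters can be compared between them. RefSeq windows (GRCh38.p14) from 250 bases before to 50 bases after the annotated start matched 7 of the 8 subunits, without CCT6A. Motifs were searched on both strands: CANNTG, the E-box that basic helix-loop-helix factors bind; CACGTG, the E-box form bound by MYC; GAANNTTC and TTCNNGAA, cores of the heat shock element; CCAAT; and CGGAAG, the core of ETS factor sites. CACGTG is itself a form of CANNTG. Matches are in capitals, and sequences run 5′ to 3′ on the strand of the gene, at chr21:29073599-29073898 for CCT8, chr6:159789553-159789852 for TCP1, chr1:156338243-156338542 for CCT3 (all minus strand) and chr2:73234058-73234357 for CCT7 (plus strand).
CCT8: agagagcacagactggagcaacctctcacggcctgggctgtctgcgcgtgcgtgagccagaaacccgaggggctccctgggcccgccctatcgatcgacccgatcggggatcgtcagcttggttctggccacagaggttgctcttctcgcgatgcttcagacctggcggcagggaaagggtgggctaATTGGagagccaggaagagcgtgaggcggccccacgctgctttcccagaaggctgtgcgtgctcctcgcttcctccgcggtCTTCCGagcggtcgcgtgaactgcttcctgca
TCP1: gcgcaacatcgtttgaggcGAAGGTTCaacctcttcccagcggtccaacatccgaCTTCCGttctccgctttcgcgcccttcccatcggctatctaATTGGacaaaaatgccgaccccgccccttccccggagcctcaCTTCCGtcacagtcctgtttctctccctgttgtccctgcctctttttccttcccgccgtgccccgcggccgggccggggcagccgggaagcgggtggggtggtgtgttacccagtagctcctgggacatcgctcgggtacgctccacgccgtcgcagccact
CCT3: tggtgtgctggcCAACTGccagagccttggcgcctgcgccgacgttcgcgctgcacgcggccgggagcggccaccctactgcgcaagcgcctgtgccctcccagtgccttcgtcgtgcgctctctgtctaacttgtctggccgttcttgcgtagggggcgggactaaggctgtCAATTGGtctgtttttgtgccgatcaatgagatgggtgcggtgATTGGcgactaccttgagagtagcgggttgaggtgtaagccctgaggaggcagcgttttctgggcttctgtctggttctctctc
CCT7: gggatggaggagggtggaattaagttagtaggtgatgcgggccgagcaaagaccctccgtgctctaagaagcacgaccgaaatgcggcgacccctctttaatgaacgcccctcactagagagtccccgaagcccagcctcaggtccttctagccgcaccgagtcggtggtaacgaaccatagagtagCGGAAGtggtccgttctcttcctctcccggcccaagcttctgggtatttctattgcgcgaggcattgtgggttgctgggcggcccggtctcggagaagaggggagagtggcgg
A CANNTG E-box was found for 3 of the 7 subunits, CCT2, CCT3 and CCT5, where 68.7% of all 35116 windows hold a match. The CCT5 window itself holds coding bases of CCT5, as in its GENCODE 29 coding sequence. Its E-box, at -1, lies after those bases and so downstream of that start codon, and its CGGAAG match lies before them. CACGTG was found for 0 of 7, against 7.26% of windows. In CCT3 the E-box nearest to the start lies at -77 and overlaps a CCAAT match read on the other strand, at -75. CGGAAG was found for 5 of 7 (CCT2, CCT5, CCT7, CCT8 and TCP1), against 19.5% of windows. CCAAT was found for 4 of 7 (CCT2, CCT3, CCT8 and TCP1), against 34.6%. GAANNTTC was found in CCT2 and TCP1, and TTCNNGAA in CCT4, against 6.77% and 7.74% of windows. CCT2 and CCT4 had 2 windows each and count with a match in either, and the RefSeq starts of all 7 subunits lie inside the gene as GENCODE 29 draws it, that of CCT3 furthest. Matches of letters are a description, and no motif was shared by all 7.

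The 3 transcription factors reported at CCT promoters were not all lower. HSF1, the main heat shock factor, was at 32.1 and 38.0 FPKM, higher as deposited and at -0.02 after the GC correction. HSF2 was at 8.27 and 2.80 FPKM, a log2 fold of -1.29, and MYC at 54.5 and 41.9 FPKM, a log2 fold of -0.37. HSF2 was thus the member at least 2-fold lower as deposited, and at -0.93 relative to the median gene it was within 2-fold. After the GC correction HSF2 stood at -0.42 and MYC at -0.34.

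The partners that deliver clients to CCT were lower to differing degrees. Cytosolic HSP70 genes were all at least 2-fold lower, 3 of 3, against 19.0% of all genes. The constitutive HSPA8 was at 1218 and 472 FPKM (log2 fold -1.37). The inducible HSPA1A (125 and 60.3 FPKM, -1.04) and HSPA1B (109 and 52.1 FPKM, -1.05) were just past the 2-fold line. HSPA1A and HSPA1B are near-identical copies between which reads may be split. Relative to the median gene HSPA8 alone passed that line, at -1.01, as did 9.46% of all genes. After the GC correction all 3 did, with a median of -1.18, against 5.88% of all genes. Of the 6 subunits of prefoldin, which captures nascent actin and tubulin, all were lower, as were 64.7% of all genes, and 2 were at least 2-fold lower, against 19.0%, with a median log2 fold of -0.81. VBP1, prefoldin subunit 3, was at 60.1 and 15.0 FPKM (-1.93) and PFDN2 at 47.8 and 22.4 FPKM (-1.06). PFDN6 (53.4 and 28.3 FPKM), PFDN4 (84.8 and 51.2 FPKM) and PFDN1 (57.2 and 35.1 FPKM) were nearer, and PFDN5 was almost level at 212 and 205 FPKM. After the GC correction PFDN6 (-1.01) was the prefoldin subunit past the 2-fold line, VBP1 stood at -0.92 and PFDN4 at 0.39.

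The phosducin-like and prefoldin-like cofactors had a median log2 fold of -1.42 as deposited, close to that of CCT itself. Of 8 listed genes 7 had a mean of at least 1 FPKM. Of these 5 were at least 2-fold lower, against 19.0% of all genes, and 0 higher, against 6.24%. TXNDC9, a thioredoxin-fold phosducin-like protein that restrains CCT activity, was at 28.2 and 6.48 FPKM (-1.96), and PDCL3, a phosducin-like protein that binds CCT, was at 23.9 and 6.47 FPKM (-1.74). PDCL, which helps CCT assemble G protein beta-gamma dimers, was at 13.5 and 5.76 FPKM (-1.10). The prefoldin-like URI1 was at 75.3 and 27.2 FPKM (-1.44) and PDCD5, a CCT-binding protein, at 181 and 67.1 FPKM (-1.42). UXT (60.6 and 45.4 FPKM) and PDRG1 (7.02 and 3.93 FPKM) were within 2-fold, and PDCL2 was listed in neither file. After the GC correction PDCL3 (-1.43) and TXNDC9 (-1.02) stayed at least 2-fold lower, as did 5.88% of all genes. The cofactor median was then -0.67, where CCT had -0.89.

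The clients were mixed in direction. Of 5 actins and actin-related genes, 2 were higher and 2 lower by 2-fold or more as deposited, against 6.24% and 19.0% of all genes. After the GC correction 1 was higher and 0 lower by as much, against 8.44% and 5.88%. The cytoplasmic actin genes ACTG1 (2284 and 4619 FPKM) and ACTB (1471 and 1975 FPKM) were higher in the ATOH8 library, as was the smooth muscle actin gene ACTA2 (4.65 and 35.6 FPKM). ACTR2 (129 and 44.9 FPKM) and ACTR3 (84.2 and 33.0 FPKM), subunits of the Arp2/3 complex, were lower. Summed over the 5 genes the level was 3973 FPKM with vector and 6707 FPKM with ATOH8, 1.69-fold higher, where CCT was 2.36-fold lower.

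Tubulin genes had a median log2 fold of -0.66 as deposited, where CCT had -1.40, and of -0.70 after the GC correction, where CCT had -0.89. Of 11 tubulins, 3 were at least 2-fold lower as deposited (19.0% of all genes), 0 relative to the median gene (9.46%) and 3 after the GC correction (5.88%). TUBA1B, a main alpha-tubulin, was at 1121 and 500.1 FPKM (-1.16), the gamma-tubulin gene TUBG1 at 70.1 and 33.1 FPKM (-1.06) and TUBB4B at 307 and 152 FPKM (-1.02). TUBB3 was at 46.7 and 62.1 FPKM, and tubulin genes are similar enough in sequence that reads may be split between them. The 6 tubulin cofactor genes, which act after CCT in making tubulin dimers, were all within 2-fold. TBCA was at 127 and 104 FPKM, TBCB at 144 and 123 FPKM, TBCC at 5.96 and 5.27 FPKM, TBCD at 33.9 and 28.2 FPKM, TBCE at 27.6 and 25.8 FPKM and ARL2 at 71.6 and 83.0 FPKM. Their median was -0.19 as deposited and 0.17 relative to the median gene, so its sign depended on the centring.

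Of 10 WD40 repeat clients, 2 were at least 2-fold lower as deposited, near the share of 19.0% over all genes. Their median of -0.31 was also near that of all genes. Relative to the median gene 0 were at least 2-fold lower, against 9.46% of all genes. GNB4, a G protein beta subunit, was at 6.95 and 2.31 FPKM (-1.27), and WRAP53, needed for telomerase trafficking, at 23.7 and 10.6 FPKM (-1.10). After the GC correction 1 of the 10 was at least 2-fold lower, against 5.88% of all genes. That was WRAP53, at -1.09, and GNB4 stood at -0.30. GNB2 was at 97.1 and 131 FPKM. CDC20, which activates the anaphase-promoting complex and is released from checkpoint complexes by CCT, was at 76.4 and 42.1 FPKM (-0.85). The other reported clients were within 2-fold. STAT3 was at 32.1 and 32.0 FPKM and HDAC3 at 27.4 and 27.0 FPKM. VHL was at 14.5 and 12.1 FPKM and CCNE1, cyclin E1, at 13.2 and 9.05 FPKM.

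Other chaperonins gave a mixed picture. HSPD1, the mitochondrial HSP60, was at 564 and 306 FPKM (log2 fold -0.88), and its lid HSPE1 at 389 and 145 FPKM (-1.42). The chaperonin-like genes of the Bardet-Biedl group were within 2-fold: MKKS was at 29.5 and 15.8 FPKM, BBS10 at 3.52 and 1.93 FPKM and BBS12 at 1.78 and 2.10 FPKM. CCT6B, the germ-line paralog of CCT6A, was at 0.616 and 0.367 FPKM, under the level used for counts, and CCT8L2 was listed in neither file. In both libraries CCT6A was therefore the zeta subunit gene with nearly all of the signal.

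**Figure D4:**
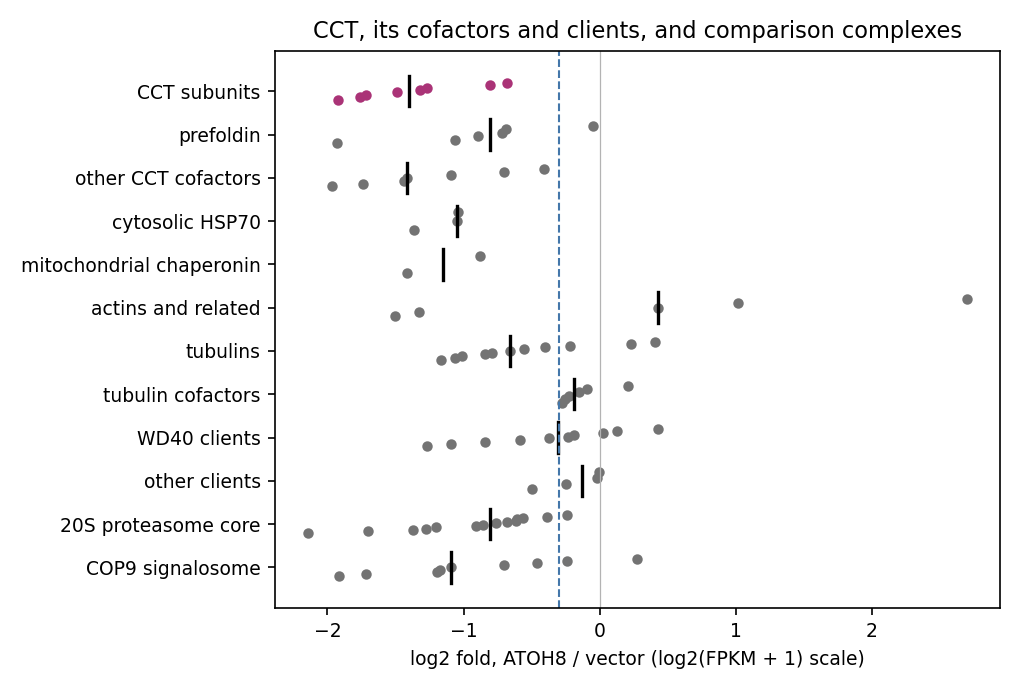
Log2 fold (ATOH8 over vector, log2(FPKM + 1) scale) of each gene with a mean of at least 1 FPKM, by group; black bars are group medians, the dashed line is the median of all genes (-0.30) and the thin line is 0. The 8 CCT subunits all lie left of the dashed line. Of the actins and related genes, ACTB, ACTG1 and ACTA2 lie right of it and ACTR2 and ACTR3 left.

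The spread among CCT subunits was set beside that of 3 other complexes of several subunits. The log2 folds of the 8 CCT subunits spanned 1.24 with a standard deviation over subunits of 0.45. The 14 genes of the 20S proteasome core spanned 1.90 (standard deviation 0.53, median -0.81, 5 at least 2-fold lower), led by PSMA3 (161 and 35.6 FPKM), PSMA4, PSMA5 and PSMA1. The 9 COP9 signalosome genes spanned 2.19 (standard deviation 0.70, median -1.09, 5 at least 2-fold lower), led by COPS3 (99.3 and 25.6 FPKM), COPS2, COPS5 and COPS8. These 9 include both COPS7A and COPS7B, and COPS7A, alone above 0 (log2 fold 0.27), set the upper end of the COP9 span. Over all genes 19.0% were at least 2-fold lower. The 6 prefoldin genes spanned 1.88 (standard deviation 0.62). CCT had the lowest median and the smallest span of these 4 complexes, and also the smallest range of transcript GC content (43.1% to 51.3%, against 37.2% to 54.5% in the proteasome core, 33.7% to 64.2% in COP9 and 35.3% to 58.4% in prefoldin). After the GC correction the spans were 0.82, 1.34, 1.67 and 1.40 in the same order, and the medians -0.89, -0.51, -0.61 and -0.69. These differences between complexes have no test.

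Among the 583 genes within 2-fold of the median subunit in abundance, those whose log2 fold was nearest to the subunit median of -1.40 were SET (289 and 108 FPKM), PRC1 (141 and 52.8 FPKM), PSMC1 (157 and 59.0 FPKM), HSPE1 and PDCD5. SET encodes a histone chaperone, PRC1 a spindle midzone protein and PSMC1 a proteasome ATPase. Each lay within 0.0108 of the subunit median on the log2 scale. With 2 libraries likeness means a similar ratio and no more.

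All 8 subunits were lower in the ATOH8 library under each of 13 other settings, 104 of 104 values. Settings that change only which genes are counted leave a subunit's value as it is, and another pseudocount cannot change its sign. Every setting uses the same 2 libraries. Of the 8, CCT5 and CCT6A were at least 2-fold lower under every setting. CCT8 was so under all but the correction on the GC content of the coding sequence, and CCT3 and CCT7 under none.

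**Figure D5:**
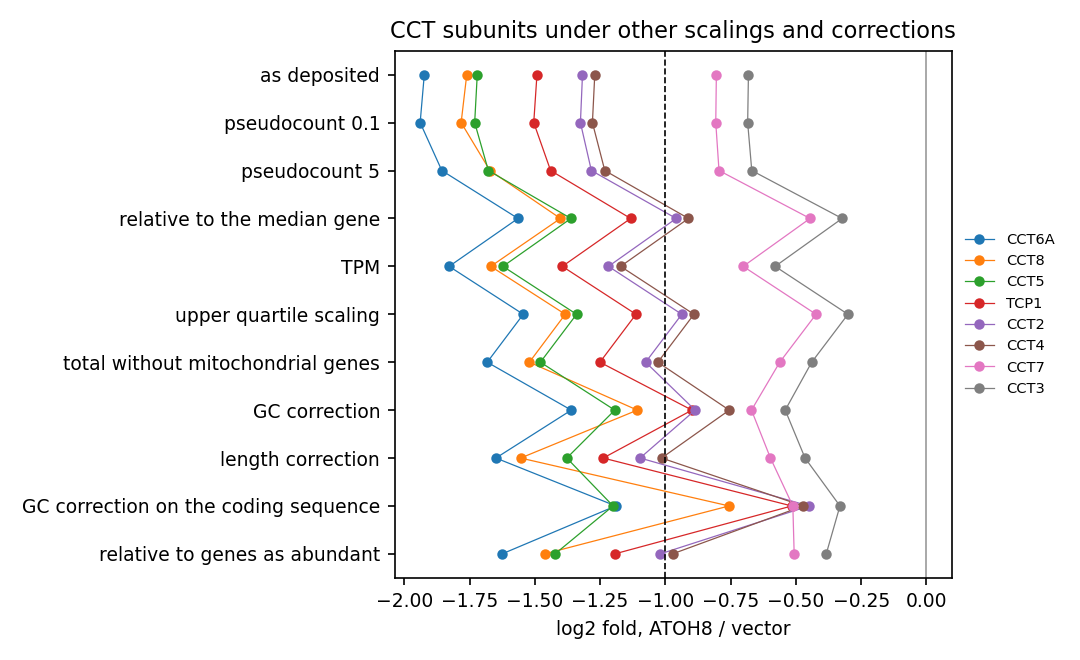
Log2 fold of each CCT subunit (ATOH8 over vector) as deposited and under other pseudocounts, scalings and corrections, joined by gene; the dashed line marks a 2-fold lower value and the grey line 0. Every point lies left of 0, and the 2 corrections on GC content draw the subunits closest together.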

How the data were processed

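RNA sequencing of A549 cells gave 2 libraries, 1 per group, grouped by the treatment label. The submitters' processing notes name CASAVA, HISAT2, Cufflinks 2.2.1 and hg38 (GRCh38), with no role for each. For each library the authors deposited FPKM by gene, per the file headers. Values reach down to 6.25e-07 FPKM and are not steps of whole reads, so depth is unknown and no counting interval can be given. Another deposited table holds the p-values and q-values of the authors' own comparison, per the file headers. Its log2 ratio, which the authors made from their per-library FPKM, was handled as a score, because ratios to 0 stand there as extreme numbers. In it 2 per-library columns carry names of no sample and were left out.

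Genes were matched between files by identifier, and a symbol's rows were summed. The log2 fold compares FPKM + 1 in the ATOH8 library with FPKM + 1 in the vector library (pseudocount 1) and understates changes of low genes; plain folds are ratios. Counts cover 12342 genes with a mean of at least 1 FPKM. No test was run, since 1 library per group gives no spread. GC content and length come from the longest protein-coding transcript in GENCODE 29, found for 99.8% of genes, and coding GC content from the longest complete coding sequence. Corrections subtract a lowess curve (fraction 0.3, statsmodels 0.14.6) and centre on the median gene. The correction on transcript GC content was checked on simulated data with a linear trend. Those on length and on the coding sequence were not checked in this way. The members and lists were chosen with earlier results of these data known. Named genes are all measured members of gene lists of up to 8, the 4 furthest from the median gene in longer lists, and the 5 genes nearest to the subunit median; cell type markers are apart from this rule. Alternatives were other pseudocounts, filters, scalings and corrections.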

Additional observations from a re-analysis of the deposited data

How the results depend on the processing

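Of 290 values recomputed under other settings, 242 kept direction and side of the 2-fold line, or a count or share within 1.5 times. Some of the 242 could not have changed. Filters on low values leave each subunit's value as it is, and centring leaves the span of the subunits as it is. The rest of the 290 follow, and the cause was not tested. With a pseudocount of 5, list medians were -0.997 for HSP70 and -0.86 for COP9. Relative to the median gene, inside the 2-fold line lay CCT2 -0.96 and CCT4 -0.91. List medians were -0.79 for the mitochondrial chaperonin, -0.69 for HSP70, 0.17 for the tubulin cofactors, 0.053 for the WD40 clients, 0.23 for the other clients and -0.73 for COP9. With TPM, the median log2 fold was -0.95 for HSP70. With upper quartile scaling, inside the 2-fold line lay CCT2 -0.94 and CCT4 -0.89. List medians were -0.77 for the mitochondrial chaperonin, -0.67 for HSP70, 0.17 for the tubulin cofactors, 0.066 for the WD40 clients, 0.23 for the other clients, 0.0041 for the promoter-binding factors and -0.74 for COP9. Without mitochondrial genes in the total, list medians were -0.91 for the mitochondrial chaperonin, -0.81 for HSP70, 0.037 for the tubulin cofactors, 0.098 for the other clients and -0.87 for COP9. After the GC correction, the CCT median was -0.89, 3 subunits were at least 2-fold lower and the span of the subunits was 0.82. Inside the 2-fold line lay TCP1 -0.90, CCT2 -0.89 and CCT4 -0.76. List medians were 0.45 for the chaperonin-like genes, -0.78 for the mitochondrial chaperonin, -0.67 for the CCT cofactors, 0.079 for the other clients and -0.61 for COP9. After a length correction, list medians were -0.92 for the mitochondrial chaperonin, -0.79 for HSP70, 0.056 for the tubulin cofactors, 0.14 for the other clients and -0.81 for COP9. After the added correction on the coding sequence, the CCT median was -0.51 and 2 subunits were at least 2-fold lower. Inside the 2-fold line lay TCP1 -0.52, CCT2 -0.45, CCT4 -0.47 and CCT8 -0.76. Relative to the median of genes as abundant, also added later, inside the 2-fold line lay CCT4 -0.97. The filters on low values, a pseudocount of 0.1, the highest row of a shared symbol and the shares of the summed FPKM changed no such call. No paired analysis was possible because the labels give no replicate numbers and each group has 1 library. The depth is unknown, so low genes carry an error that cannot be stated.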
